A study of Mus musculus with 12 samples.

Results

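The 10 genes Tcf7, Lef1, Bach2, Id2, Id3, Tbx21, Eomes, Prdm1, Irf4 and Tox, transcriptional regulators that steer activated CD8 T cells toward stem-like, memory, effector or exhausted fates, were followed through mouse CD8 T cells treated with genipin, with N-acetylcysteine (NAC), with both, or with vehicle. They were matched by gene symbol in the deposited tables, with no threshold on their values. All 10 were found among the 55450 genes of the files and all 10 were among the 13636 genes that passed a filter on low counts. Tox passed that filter through the treated groups, since its vehicle libraries held at most 4 counts.

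An activated CD8 T cell can become a short-lived killer, a long-lived memory cell or, under persistent antigen, an exhausted cell, and transcription factors that restrain one another set the balance. TCF-1 (encoded by Tcf7), LEF-1, BACH2 and ID3 are associated with stem-like and memory cells. ID2, T-bet (Tbx21), BLIMP-1 (Prdm1) and IRF4 go with effector differentiation, EOMES takes part in effector and memory programmes, and TOX is known for its role in exhausted cells.

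The cells came from pmel-1 mice, whose transgenic receptor recognises a melanoma antigen peptide, and all 12 libraries carried the wildtype Ucp2 genotype. Cells were activated with the peptide or with antibodies to CD3 and CD28 (the route used for each library is not given), and then grown in IL-2 at 10 ng/ml for 4 days. The 4 groups of 3 libraries were genipin+NAC, genipin, NAC and vehicle, the last being culture medium. Genipin is a plant-derived compound used as an inhibitor of the mitochondrial carrier UCP2, and NAC is a thiol antioxidant. No dose is stated in the labels, and whether replicates were separate animals or cultures is not stated either, so the p-values measure the spread between these libraries, which may be technical.

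Library totals lay between 20838894 and 31098648 expected counts. The common biological coefficient of variation was 0.0393. Genipin+NAC replicate 1 stood apart from its group. Compared by chi-square over genes, it gave 7.23 and 8.29 per degree of freedom against the other 2 libraries of that group, whereas all other replicate pairs of the 4 groups lay between 2.09 and 3.0. CD8 T cell identity genes (Cd3d, Cd3e, Cd3g, Cd8a, Cd8b1, Trac, Trbc1, Thy1 and Lck) were abundant throughout, with summed levels from 4651 to 5780 TPM (a level per transcript length). Of 7 macrophage and granulocyte markers Cd14 alone passed the filter, and Fcgr1 and S100a8 had no counts in any library. The 7 summed to 2.21 to 2.78 TPM with genipin+NAC, 3.04 to 3.71 TPM with genipin, 0.79 to 1.33 TPM with NAC and 1.8 to 2.78 TPM with vehicle. The 5 dendritic cell markers, 3 of them tested, summed to at most 10.6 TPM in a library, and the 3 plasma cell markers to at most 4.51 TPM.

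Tcf7 (ENSMUSG00000000782.15, chromosome 11, 52252371 to 52283014, mm10) showed the widest spread of any member that was well measured in all groups. Its level was 35.0, 31.9 and 33.1 CPM (read counts relative to the TMM-scaled library total) in genipin+NAC libraries, 2.51, 2.99 and 3.57 CPM with genipin, 91.9, 86.0 and 86.4 CPM with NAC and 5.87, 6.34 and 7.61 CPM with vehicle. The 4 groups did not overlap, with NAC at the top and genipin at the bottom. In bulk RNA, a change in the share of cells that express a gene and a change of its RNA per cell cannot be told apart. Tcf7 was 13.2-fold higher with NAC than with vehicle and 5.01-fold higher with genipin+NAC than with vehicle, while genipin alone lowered it by a factor of 2.19. The corresponding log2 fold changes ± SE were 3.73 ± 0.08, 2.32 ± 0.09 and -1.13 ± 0.13 (n = 3 libraries per group), with adjusted p = 2.12e-19, 2.85e-15 and 9.38e-08 in edgeR's quasi-likelihood test. Adding genipin to NAC lowered Tcf7 by a factor of 2.64 (-1.40 ± 0.07, adjusted p = 1.42e-13), and adding NAC to genipin raised it 10.95-fold (3.45 ± 0.10, adjusted p = 1.03e-17).

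The summed markers of B cells and of CD4 T cells, the second of which also use Tcf7, were highest with NAC and next highest with genipin+NAC, but single markers differed. The 7 B cell markers summed to 126.2 to 128.6 TPM with genipin+NAC, 49.96 to 53.97 TPM with genipin, 170.2 to 180.4 TPM with NAC and 32.8 to 33.4 TPM with vehicle, and 3 of the 7 were tested. Of those 3, Cd79b was higher with NAC (1.88 ± 0.16) and genipin+NAC (1.14 ± 0.17) than with vehicle. It was lower with genipin (-0.99 ± 0.22), and these were the directions of Tcf7. Ebf1, a defining factor of B cells, was lower with NAC than with vehicle (-1.03 ± 0.28, adjusted p = 0.00366). Ighm was higher with genipin than with vehicle (0.60 ± 0.04), unlike Tcf7. Most of the sum was the immunoglobulin transcript Ighm, at 159.7 to 167.6 TPM with NAC and 29.7 to 30.5 TPM with vehicle. The defining B cell genes Ms4a1 and Pax5 had at most 2 counts each in any library. The 4 CD4 T cell markers, 2 of them tested, summed to 21.3 to 26.4 TPM with genipin+NAC, 18.2 to 21.6 TPM with genipin, 37.1 to 43.1 TPM with NAC and 15.6 to 19.8 TPM with vehicle. Most of this sum was Zbtb7b, at 34.27 to 40.43 TPM with NAC and 14.9 to 18.25 TPM with vehicle. In edgeR Zbtb7b was higher with NAC than with vehicle (0.64 ± 0.06, adjusted p = 1.14e-08) and did not pass with genipin (0.0021 ± 0.06). Cd4, the other tested marker, had 110 to 138 counts per NAC library against 24 to 36 counts per vehicle library. The genipin libraries held 4, 14 and 8 counts of it. In edgeR Cd4 was higher with NAC (2.02 ± 0.21) and genipin+NAC (1.06 ± 0.23) than with vehicle. It was lower with genipin (-1.85 ± 0.33), so Cd4 also had the directions of Tcf7. Every library held 8778 or more counts of Cd8a. Against vehicle Cd8a gave 0.80 ± 0.03 with NAC, 0.51 ± 0.03 with genipin+NAC and -0.26 ± 0.03 with genipin, the directions of Tcf7. The other CD8 T cell identity genes were divided with NAC against vehicle. Cd8b1 (0.55 ± 0.03) and Trbc1 were higher, Cd3d, Cd3e, Cd3g, Lck and Thy1 (-0.40 ± 0.03) were lower, and Trac did not pass. Cd40lg, which was not tested, had 3, 1 and 7 counts with genipin+NAC, 0, 0 and 3 with genipin, 11, 7 and 7 with NAC and 6, 19 and 9 with vehicle. Foxp3, also not tested, had at most 13 counts in a library with genipin+NAC, 6 with NAC and 1 with genipin or vehicle. The part of these markers in the Tcf7 values was not tested.

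**Figure D1:**
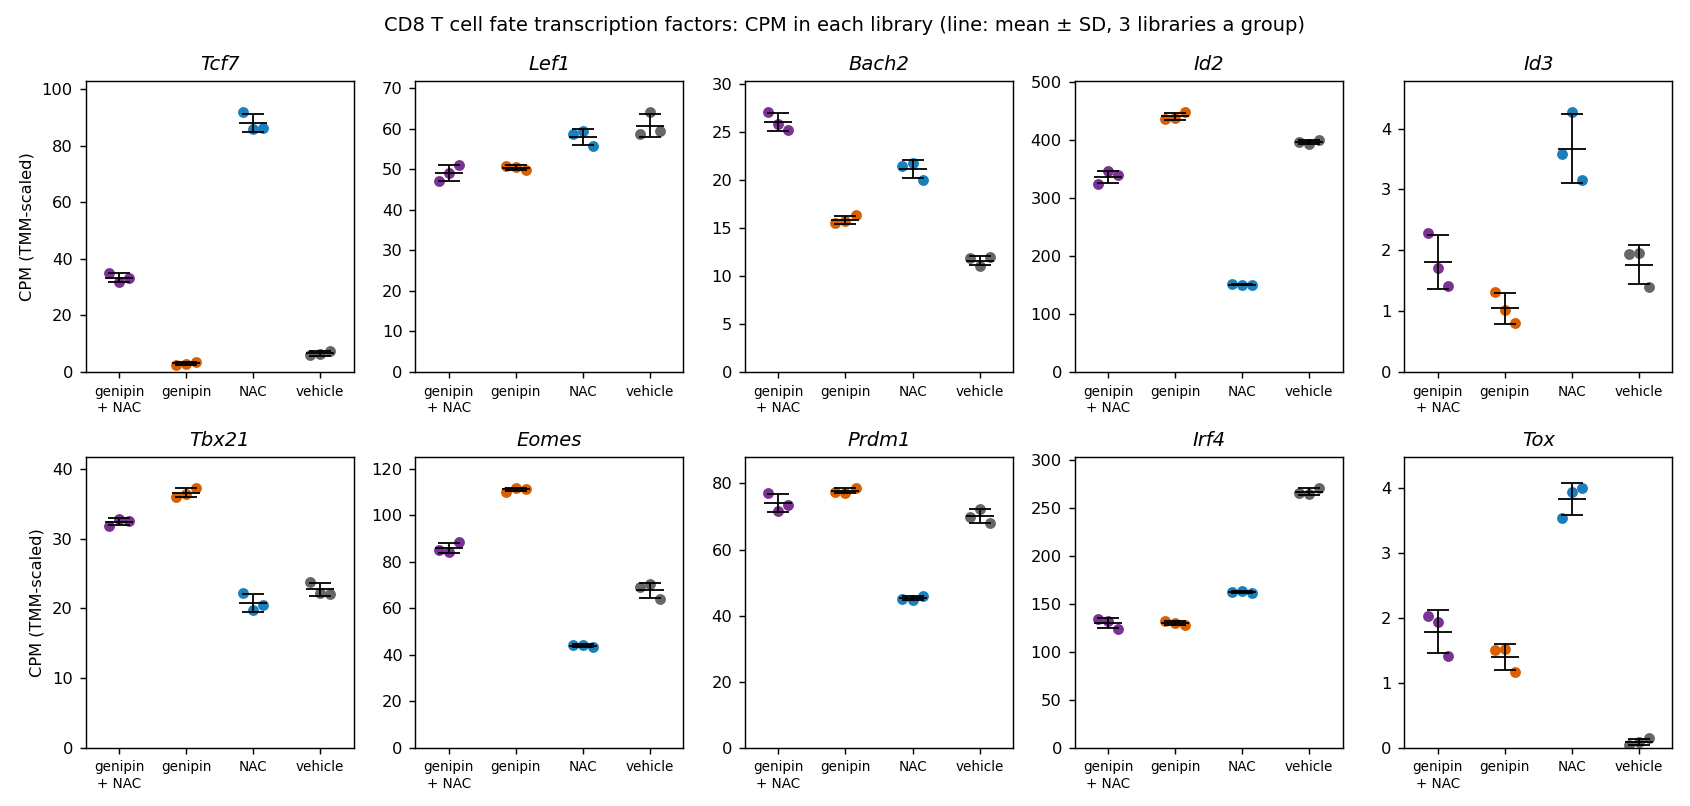
Level of each of the 10 factors in CPM (vertical axes, each starting at 0) in the 12 libraries; points are libraries and black lines give the mean ± SD of 3 libraries per group. Tcf7 sits between 86.0 and 91.9 CPM with NAC and between 2.51 and 3.57 CPM with genipin, Id2 is lowest with NAC, and Tox is near 0 with vehicle.

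Lef1, the close relative of Tcf7 (ENSMUSG00000027985.14, chromosome 3, 131110471 to 131224356), did not follow it. Its level was 47.1, 49.2 and 51.0 CPM with genipin+NAC, 50.9, 50.7 and 49.8 CPM with genipin, 58.7, 59.5 and 55.8 CPM with NAC and 58.8, 64.1 and 59.4 CPM with vehicle. The libraries with genipin were all below those without it. Lef1 fell with genipin+NAC (-0.31 ± 0.05, adjusted p = 6.17e-06) and with genipin (-0.27 ± 0.05, adjusted p = 2.71e-05) against vehicle, while NAC against vehicle did not pass (-0.07 ± 0.04, 95% interval -0.161 to 0.0254, adjusted p = 0.202). The genipin call was lost when effective lengths were used as offsets (-0.16 ± 0.08, adjusted p = 0.0885). On the TPM scale the genipin libraries (28.7 to 30.3 TPM) lay inside the vehicle range (27.7 to 34.1 TPM). The TPM ranges cannot decide whether Lef1 fell. Log2 TPM ratios of genipin to vehicle ran above log2 changes of scaled counts by a median of 0.13 over genes. The highest vehicle value came from the vehicle library with the shortest Lef1 effective length, 2007 bases.

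Bach2, a repressor that restrains effector differentiation (ENSMUSG00000040270.16, chromosome 4, 32238804 to 32586108), was higher in every treated group. It had 27.0, 25.8 and 25.2 CPM with genipin+NAC, 15.5, 15.7 and 16.3 CPM with genipin, 21.5, 21.8 and 20.03 CPM with NAC and 11.8, 11.02 and 11.9 CPM with vehicle. No pair of groups overlapped. Relative to vehicle the rise was 2.24-fold with genipin+NAC (1.16 ± 0.06, adjusted p = 1.83e-12), 1.37-fold with genipin (0.45 ± 0.07, adjusted p = 6.48e-06) and 1.82-fold with NAC (0.86 ± 0.07, adjusted p = 3.22e-10). Genipin+NAC also exceeded NAC alone (0.30 ± 0.06, adjusted p = 0.000212), a call that was lost with effective lengths as offsets (0.21 ± 0.14, adjusted p = 0.241).

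Id3, an inhibitor of E protein transcription factors that is linked to memory precursors (ENSMUSG00000007872.3, chromosome 4, 136143497 to 136145755), was scarce, with 22 to 113 counts per library. It had 2.28, 1.72 and 1.41 CPM with genipin+NAC, 1.31, 1.03 and 0.802 CPM with genipin, 3.59, 4.27 and 3.16 CPM with NAC and 1.94, 1.96 and 1.39 CPM with vehicle. NAC libraries were the highest and genipin libraries the lowest, and the genipin+NAC and vehicle libraries overlapped. Id3 rose 2.09-fold with NAC against vehicle (1.07 ± 0.21, adjusted p = 0.000181), and fell in genipin+NAC against NAC (-1.04 ± 0.21, adjusted p = 0.000256). Genipin against vehicle gave -0.74 ± 0.25 (adjusted p = 0.0147), but this call was lost without vehicle replicate 1 (adjusted p = 0.0527), vehicle replicate 2 (adjusted p = 0.0547) or genipin replicate 3 (adjusted p = 0.0844). Genipin+NAC against genipin gave 0.76 ± 0.25 (adjusted p = 0.0104), which was lost without genipin replicate 3 (adjusted p = 0.0654) or genipin+NAC replicate 1 (adjusted p = 0.0659).

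Id2, the relative of Id3 that goes with effector cells (ENSMUSG00000020644.9, chromosome 12, 25093799 to 25097140), was the most abundant member in all 4 groups. It had 325, 346 and 339 CPM with genipin+NAC, 437, 439 and 448 CPM with genipin, 151, 151 and 149 CPM with NAC and 397, 394 and 400 CPM with vehicle. All 4 groups were separate, and NAC alone stood far below the others. Id2 was 2.64-fold lower with NAC than with vehicle (-1.40 ± 0.03, adjusted p = 1.22e-19), a difference whose p ranked 17 among the 13636 genes. Genipin raised it slightly on its own (0.15 ± 0.03, adjusted p = 7.15e-05) and 2.24-fold when added to NAC (1.16 ± 0.03, adjusted p = 3.24e-18).

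The T-box factors Tbx21 (ENSMUSG00000001444.2, chromosome 11, 97098071 to 97115331) and Eomes (ENSMUSG00000032446.14, chromosome 9, 118478212 to 118486132) drive cytotoxic gene expression and the receptor chain for IL-2 and IL-15. Tbx21 had 31.8, 32.8 and 32.6 CPM with genipin+NAC, 36.0, 36.4 and 37.3 CPM with genipin, 22.3, 19.7 and 20.4 CPM with NAC and 23.8, 22.2 and 22.04 CPM with vehicle. Genipin raised it without NAC (0.69 ± 0.06, adjusted p = 1.16e-09) and with NAC (0.64 ± 0.06, adjusted p = 6.71e-09), and the NAC and vehicle libraries overlapped (-0.13 ± 0.06, adjusted p = 0.0754, and adjusted p = 0.0275 without NAC replicate 1). Tbx21 was also higher with genipin+NAC than with vehicle (0.52 ± 0.06, adjusted p = 1.33e-07) and lower than with genipin (-0.17 ± 0.06, adjusted p = 0.00831).

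Eomes had 85.0, 84.3 and 88.6 CPM with genipin+NAC, 110.2, 111.8 and 111.4 CPM with genipin, 44.3, 44.1 and 43.4 CPM with NAC and 69.1, 70.2 and 64.1 CPM with vehicle. The groups ran in the order genipin, genipin+NAC, vehicle and NAC with no overlap. Eomes rose with genipin (0.71 ± 0.04, adjusted p = 6.87e-13), fell with NAC (-0.63 ± 0.04, adjusted p = 2.77e-11) and lay 0.35 ± 0.04 above vehicle with genipin+NAC (adjusted p = 1.13e-07). Genipin+NAC exceeded NAC 1.96-fold (0.97 ± 0.04, adjusted p = 1.7e-14).

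Natural killer cells depend on the same T-box factors, and the summed markers of those cells were highest in the genipin group. The 4 listed natural killer markers, 3 of them tested, summed to 5.04 to 6.25 TPM with genipin+NAC, 9.11 to 10.1 TPM with genipin, 2.36 to 3.13 TPM with NAC and 3.29 to 4.14 TPM with vehicle. The defining receptor Ncr1 had 36 to 64 counts per genipin library and at most 4 counts in any other library, and Klra8 had at most 1 count anywhere. Klrb1c averaged 5.83 CPM with genipin+NAC, 8.34 CPM with genipin, 1.72 CPM with NAC and 3.05 CPM with vehicle, the group order of Eomes. Against vehicle Klrb1c gave 1.44 ± 0.15 with genipin (adjusted p = 2.51e-08) and -0.82 ± 0.18 with NAC (adjusted p = 0.000649). Klre1, also tested, was not highest with genipin. It averaged 1.92 CPM with genipin+NAC, 1.68 CPM with genipin, 1.22 CPM with NAC and 1.71 CPM with vehicle. For Klre1, genipin against vehicle gave -0.01 ± 0.23 (adjusted p = 0.968). What part these transcripts had in the Tbx21 and Eomes values was not tested.

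Prdm1, which encodes BLIMP-1, a repressor that promotes terminal effector differentiation (ENSMUSG00000038151.13, chromosome 10, 44437177 to 44528501), had 77.0, 71.5 and 73.6 CPM with genipin+NAC, 77.5, 77.2 and 78.7 CPM with genipin, 44.99, 44.8 and 46.0 CPM with NAC and 70.0, 72.2 and 68.2 CPM with vehicle. NAC alone was the one group set apart by a wide margin. Prdm1 fell 1.55-fold with NAC (-0.63 ± 0.04, adjusted p = 1.67e-11), and rose 1.11-fold with genipin (0.15 ± 0.04, adjusted p = 0.00173). Genipin+NAC against vehicle did not pass (0.08 ± 0.04, adjusted p = 0.0817), but did without genipin+NAC replicate 2 (adjusted p = 0.0402). Genipin+NAC exceeded NAC 1.64-fold (0.71 ± 0.04, adjusted p = 2.49e-12).

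Irf4, whose level scales with the strength of T cell receptor signalling and which sustains effector expansion (ENSMUSG00000021356.10, chromosome 13, 30749226 to 30766976), was lower in every treated group. It had 134, 132 and 124.1 CPM with genipin+NAC, 132, 129.9 and 127.4 CPM with genipin, 162.5, 164 and 161 CPM with NAC and 265, 264 and 271 CPM with vehicle. The vehicle libraries stood clear of all others, and the genipin+NAC and genipin libraries overlapped. Against vehicle the fall was 2.05-fold with genipin+NAC (-1.04 ± 0.03, adjusted p = 1.48e-16), 2.05-fold with genipin (-1.04 ± 0.03, adjusted p = 8.81e-17) and 1.64-fold with NAC (-0.72 ± 0.03, adjusted p = 3.94e-14). Between genipin+NAC and genipin the difference was 0.00091 ± 0.03 on the log2 scale, with a 95% interval of -0.0674 to 0.0693.

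Tox, a chromatin-associated factor of exhausted T cells (ENSMUSG00000041272.11, chromosome 4, 6686353 to 6991557), was almost absent from vehicle libraries. It had 47, 45 and 43 counts with genipin+NAC, 39, 34 and 32 counts with genipin, 77, 104 and 105 counts with NAC and 1, 2 and 4 counts with vehicle. Every treated library was above every vehicle library, and NAC was above the other groups. Pooled over the 3 libraries of a group and scaled by library size, Tox was 18.9 times as high with genipin+NAC as with vehicle (95% exact counting interval 8.93 to 47.9), 15 times as high with genipin (7.02 to 38.2) and 41.5 times as high with NAC (19.9 to 104). These intervals cover counting error only. Each difference from vehicle passed the edgeR test (adjusted p = 3.42e-09, 2.07e-08 and 1.12e-11), whose fitted fold changes rest on the 7 vehicle counts. Genipin+NAC was 2.16-fold below NAC (-1.11 ± 0.20, adjusted p = 5.55e-05). With NAC the level was 1.26 to 1.33 TPM, above 16.6% of the tested genes.

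**Figure D2:**
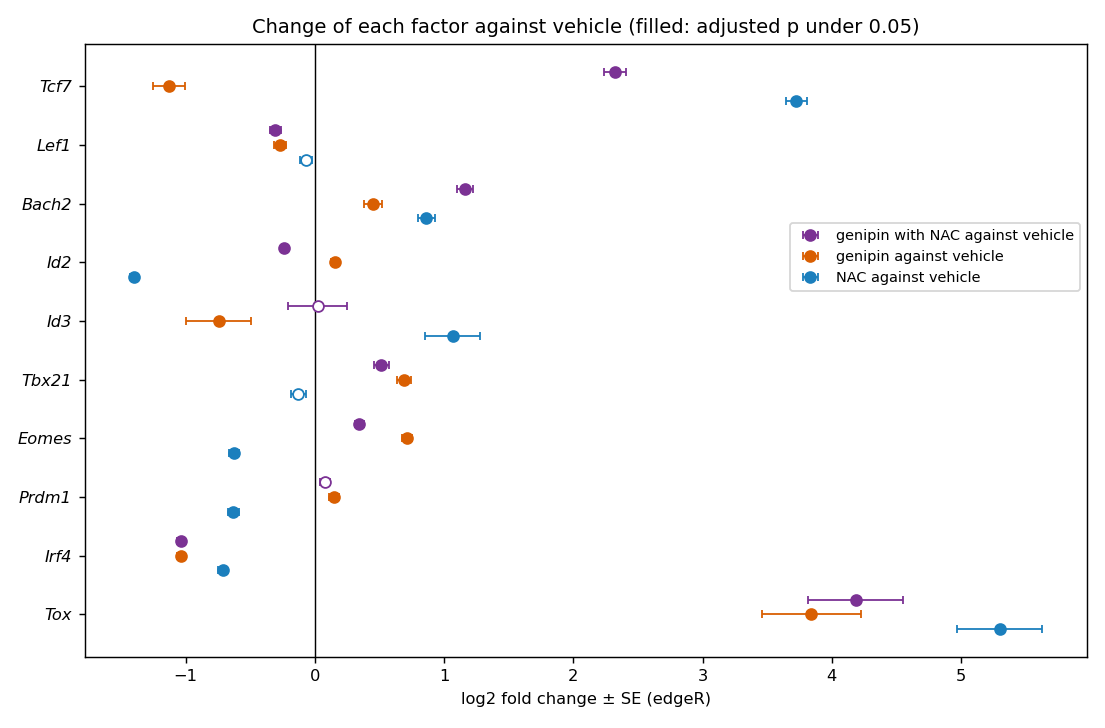
Log2 fold change against vehicle with its SE (horizontal axis) for each factor, by treatment; filled points had adjusted p under 0.05. Tcf7 lies at 2.32 with genipin with NAC, -1.13 with genipin and 3.73 with NAC, while Irf4 lies left of 0 and Bach2 and Tox right of 0 in all 3 comparisons.

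Counted against the background, many genes differed in these libraries, and the count of members called is read against that background. In genipin with NAC against vehicle 5 members were higher and 3 lower, where 57.4% of tested genes were called (28.5% higher, 28.9% lower). In genipin against vehicle 6 members were higher and 4 lower, where 61.0% of all tested genes were called (29.9% higher, 31.0% lower). In NAC against vehicle 4 were higher and 4 lower, where 59.7% were called (29.6% higher, 30.0% lower), a split of 5615 higher and 2700 lower genes without normalization factors against 4041 and 4093 with them. These 3 comparisons share the vehicle libraries. The median absolute log2 change of the members was 0.43, 0.70 and 0.79 in the 3 comparisons, against 0.26, 0.28 and 0.27 over all tested genes. The members were chosen with earlier results of these data known, so this contrast is a description and was not tested.

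Within genipin-treated cells, NAC raised Tcf7, Bach2 and Id3 and lowered Id2, Tbx21 and Eomes: 3 members were higher and 3 lower in genipin with NAC against genipin, where 69.3% of tested genes were called (35.0% higher, 34.3% lower). Id2 was 1.31-fold lower (-0.39 ± 0.03, adjusted p = 6.25e-11), Eomes 1.29-fold lower (-0.37 ± 0.04, adjusted p = 1.29e-08) and Bach2 1.64-fold higher (0.71 ± 0.06, adjusted p = 1.27e-09). Lef1, Prdm1, Irf4 and Tox did not pass, with Tox at 0.34 ± 0.22 (95% interval -0.115 to 0.802) and Prdm1 at -0.07 ± 0.04 (adjusted p = 0.0986, and adjusted p = 0.0218 without genipin+NAC replicate 1).

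Within NAC-treated cells, genipin raised Bach2, Id2, Tbx21, Eomes and Prdm1 and lowered Tcf7, Lef1, Id3, Irf4 and Tox. All 10 members were called in genipin with NAC against NAC, 5 higher and 5 lower, where 53.1% of tested genes were called (26.6% higher, 26.5% lower). Without normalization factors the genes called split into 2650 higher and 4733 lower, against 3632 and 3607 with them, and the members kept their 5 and 5.

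The interaction asks whether the genipin effect with NAC differed from that without it, in the log2 difference between the 2 effects. Of the members 4 had a positive interaction and 1 a negative one, where 51.4% of tested genes were called (27.4% higher, 24.0% lower), and without normalization factors the genes called split into 2618 higher and 4806 lower, against 3733 and 3275. Id2 had the firmest value, 1.01 ± 0.04 (adjusted p = 8.22e-15): genipin changed it by 1.16 with NAC and by 0.15 without. Irf4 gave 0.72 ± 0.05 (adjusted p = 1.93e-11), since genipin changed it by -0.32 with NAC and by -1.04 without. Prdm1 gave 0.56 ± 0.05 (adjusted p = 2.25e-08), with genipin effects of 0.71 and 0.15.

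Eomes gave 0.26 ± 0.06 (adjusted p = 0.00051), which was lost without normalization factors (0.11 ± 0.05, adjusted p = 0.09). Tox gave -4.96 ± 0.43 (adjusted p = 3.33e-09), the fitted difference between a fall in NAC-treated cells and a rise in cells without NAC that rests on 7 pooled vehicle counts. Tcf7 did not pass at -0.27 ± 0.15 (95% interval -0.576 to 0.0305, adjusted p = 0.125), with a genipin effect of -1.40 with NAC and -1.13 without. This result moved past the threshold without normalization factors (-0.42, adjusted p = 0.0198), without vehicle replicate 3 (-0.40, adjusted p = 0.0293) and without genipin replicate 1 (-0.40, adjusted p = 0.0366). Tbx21 did not pass at -0.05 ± 0.08 (95% interval -0.217 to 0.124), nor did Lef1 at 0.03 ± 0.06 (-0.103 to 0.164), Bach2 at -0.15 ± 0.09 (-0.337 to 0.0383) or Id3 at -0.30 ± 0.33 (-0.995 to 0.393).

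**Figure D3:**
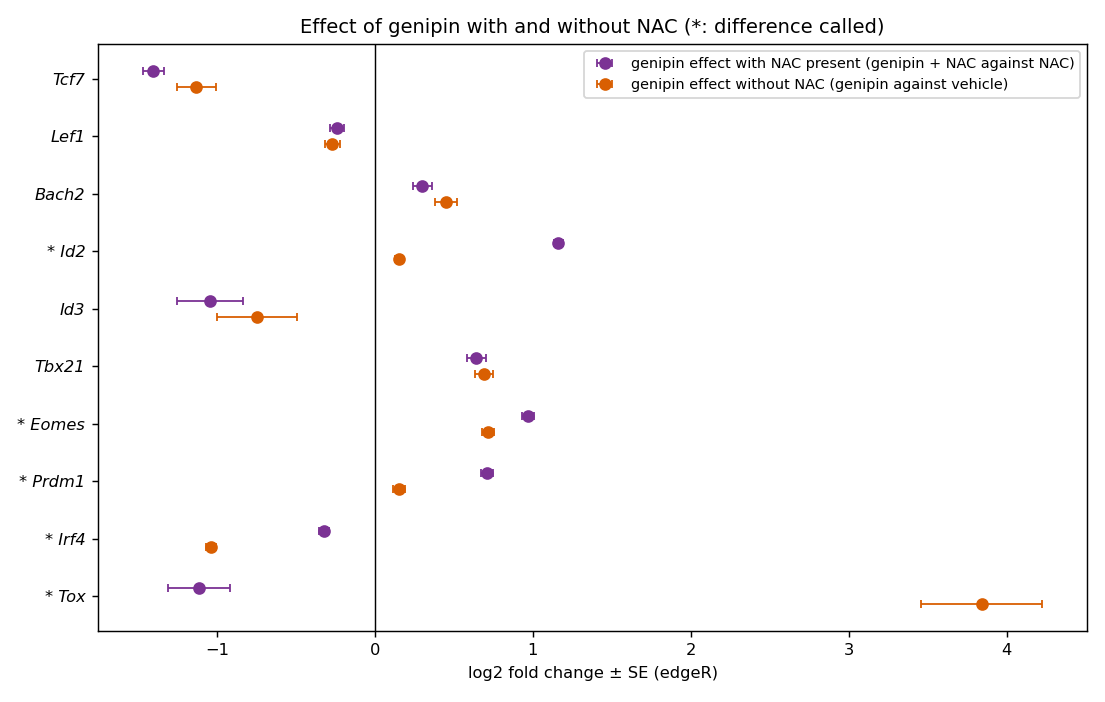
Log2 fold change ± SE (horizontal axis) of each factor for genipin in cells that also had NAC and in cells that did not; an asterisk marks factors whose 2 effects differed at adjusted p under 0.05. The pairs lie close together for Tcf7, Lef1, Bach2 and Tbx21, apart for Id2 (1.16 and 0.15) and on opposite sides of 0 for Tox.

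Levels of the factors can be set side by side on the TPM scale. Against log2 changes of scaled counts, log2 TPM ratios ran higher by a median of 0.13 for genipin and 0.20 for NAC relative to vehicle. Id2 led every group, with 367 ± 9.85 TPM (SD, n = 3) with genipin+NAC, 503 ± 4.99 TPM with genipin, 181 ± 0.33 TPM with NAC and 414 ± 4.95 TPM with vehicle. After Id2, the order with vehicle was Irf4 (63.4 ± 0.99 TPM), Lef1 (30.1 ± 3.48), Eomes (22.9 ± 0.94), Prdm1 (16.2 ± 0.33), Tbx21 (10.8 ± 0.51), Tcf7 (3.36 ± 0.35), then Id3 (1.84 ± 0.26) and Bach2 (1.81 ± 0.37), whose ranges overlapped, and last Tox. With NAC, Tcf7 (50.9 ± 1.64 TPM) took second place ahead of Irf4 (44.6 ± 0.67), and it was above 82.3% of tested genes, against 29.2% with vehicle. With genipin, Eomes (40.5 ± 0.28 TPM) exceeded Irf4 (33.9 ± 0.68) and Tcf7 (1.66 ± 0.28) dropped to place 8, where its range overlapped that of Id3 (1.17 ± 0.30). With genipin+NAC, Irf4 (32.2 ± 1.73 TPM) and Eomes (30.4 ± 0.81) overlapped, as did Prdm1 (17.8 ± 0.77) and Tcf7 (17.4 ± 0.89). In the NAC libraries Prdm1 (11.9 ± 0.36) and Tbx21 (11.3 ± 0.69) overlapped, and so did Id3 (4.53 ± 0.63) and Bach2 (3.51 ± 0.44).

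**Figure D4:**
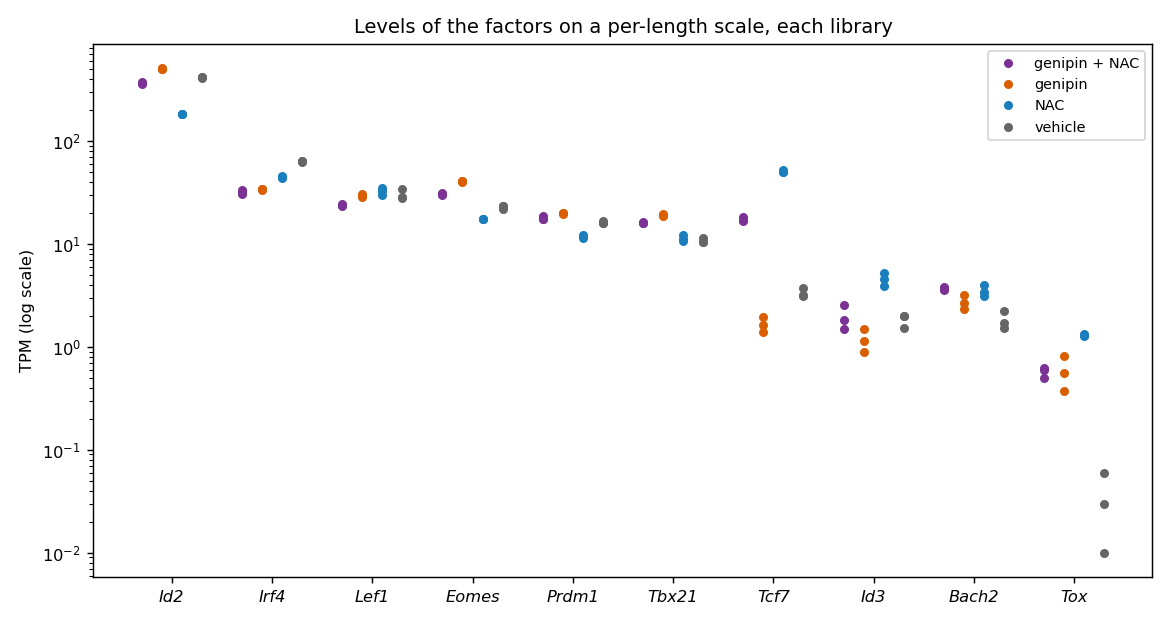
Level of each factor in TPM (vertical axis, log scale) in each of the 12 libraries, with factors ordered by their vehicle mean. Id2 is highest in every group, and Tcf7 moves between 1.39 TPM in a genipin library and 52.7 TPM in a NAC library.

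Ratios between relatives moved with the treatments and are given as descriptions. The TPM ratio of Id3 to Id2 was 0.00404 to 0.00715 with genipin+NAC, 0.00175 to 0.00295 with genipin, 0.0215 to 0.0285 with NAC and 0.00369 to 0.00488 with vehicle, so it was above all other libraries in the NAC group. The ratio of Lef1 to Tcf7 was 1.26 to 1.44 with genipin+NAC, 14.9 to 20.6 with genipin, 0.60 to 0.67 with NAC and 7.56 to 10.7 with vehicle. Tcf7 transcripts outnumbered Lef1 transcripts in the NAC libraries and in no other group. The ratio of Eomes to Tbx21 stayed within 1.82 to 1.96 with genipin+NAC, 2.10 to 2.14 with genipin, 1.45 to 1.65 with NAC and 2.06 to 2.23 with vehicle.

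Gene-level effective length, which RSEM weights by the estimated use of each transcript, gave a readout other than the level. For Tcf7, with 2 annotated transcripts, it was 2130 to 2159 bases with genipin+NAC, 2119 to 2162 with genipin, 2127 to 2136 with NAC and 2024 to 2172 with vehicle, and the vehicle range held all of the others. These gene totals do not separate the TCF-1 forms with and without the beta-catenin binding end. For Eomes, with 3 transcripts, it was 3131 to 3182 bases with genipin+NAC, 3223 to 3249 with genipin, 3075 to 3099 with NAC and 3165 to 3208 with vehicle, so the genipin and NAC libraries lay on opposite sides of vehicle. Lef1, with 8 transcripts, had 2290 to 2318 bases with genipin+NAC, 1973 to 2086 with genipin, 2049 to 2296 with NAC and 2007 to 2288 with vehicle. Bach2 ran from 5743 to 8473 bases, and its vehicle libraries alone covered 5771 to 8473, which spreads its TPM more than its CPM. The strand setting of the counting is not given, and Lef1 shares 1208 exon bases with the antisense gene Gm43352 (at most 31 counts in a library) and Eomes shares 118 with Gm33460 (at most 12).

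The genes with the profiles most similar to those of the members over the 12 libraries were sought among 9462 genes with a mean of at least 5 CPM, by the root mean square difference of centred log2 CPM. Nearest to Tcf7 were Nsg2 (difference 0.35), Rcn3 (0.41) and the MHC class II gene H2-Eb1 (0.54). Nearest to Id2 were Pilrb1 (0.08), Lgals3 (0.10) and Anxa1 (0.11), which encodes annexin A1. Nearest to Eomes were Zyx (0.06), Lfng (0.07) and Il2rb (0.10), the shared receptor chain for IL-2 and IL-15. For Prdm1 they were Ctsd (0.06), Pdcd1lg2 (0.07) and Ell2 (0.08), and for Irf4 Cd44 (0.10), Il2ra (0.11) and Osm (0.12). Tbx21 lay nearest to B4galnt1 (0.07), Ctse (0.09) and Adcy7 (0.09), Bach2 to Calcoco1 (0.09), Gab3 (0.11) and Klf10 (0.12), and Lef1 to Sugp2 (0.03), Nat10 (0.04) and Nadk (0.04). For the scarce Id3 and Tox the nearest genes were Zdhhc23, Pkhd1l1 and Slc5a3 (0.25 to 0.26) and Cd9, Itgae and Emid1 (0.83 to 1.16).

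The 5 members that genipin raised both with and without NAC were Bach2, Id2, Tbx21, Eomes and Prdm1. They shared this direction but not the size of the rise. Without NAC it ran from 0.15 for Id2 and Prdm1 to 0.71 for Eomes. With NAC it ran from 0.30 for Bach2, a call lost with effective lengths as offsets, to 1.16 for Id2. The 250 bases upstream of their RefSeq transcript starts (GRCm38.p6, the build also called mm10) are shown. Capitals mark matches to a searched motif. Of these 5 starts, that of Tbx21 coincides with the outer end of the GENCODE gene given above and the others do not. The starts of Bach2 (32417435), Prdm1 (44458748) and Id2 (25096092) lie inside the genes given above. That of Eomes (118478189) lies just outside. Which starts these cells used was not tested.
Bach2 (chr4:32417185-32417434, plus strand): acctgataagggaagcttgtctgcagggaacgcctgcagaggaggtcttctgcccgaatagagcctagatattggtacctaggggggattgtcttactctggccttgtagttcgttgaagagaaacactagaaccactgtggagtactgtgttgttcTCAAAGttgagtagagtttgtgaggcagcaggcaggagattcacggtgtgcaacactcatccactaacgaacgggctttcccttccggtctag
Id2 (chr12:25096093-25096342, minus strand): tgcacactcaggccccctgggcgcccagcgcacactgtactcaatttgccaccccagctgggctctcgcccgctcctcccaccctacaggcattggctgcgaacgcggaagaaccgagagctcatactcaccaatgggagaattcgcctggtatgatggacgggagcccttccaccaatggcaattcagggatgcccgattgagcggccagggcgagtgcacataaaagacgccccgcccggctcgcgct
Tbx21 (chr11:97115332-97115581, minus strand): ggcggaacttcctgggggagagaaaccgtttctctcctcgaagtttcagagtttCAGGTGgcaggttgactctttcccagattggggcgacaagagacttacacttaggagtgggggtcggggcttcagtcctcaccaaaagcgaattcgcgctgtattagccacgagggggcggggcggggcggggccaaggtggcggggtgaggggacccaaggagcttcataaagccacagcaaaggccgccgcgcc
Eomes (chr9:118477939-118478188, plus strand): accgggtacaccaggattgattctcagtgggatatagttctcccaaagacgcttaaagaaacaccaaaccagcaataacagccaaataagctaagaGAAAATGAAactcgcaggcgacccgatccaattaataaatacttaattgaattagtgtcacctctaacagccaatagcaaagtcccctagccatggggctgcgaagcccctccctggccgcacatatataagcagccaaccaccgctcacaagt
Prdm1 (chr10:44458749-44458998, minus strand): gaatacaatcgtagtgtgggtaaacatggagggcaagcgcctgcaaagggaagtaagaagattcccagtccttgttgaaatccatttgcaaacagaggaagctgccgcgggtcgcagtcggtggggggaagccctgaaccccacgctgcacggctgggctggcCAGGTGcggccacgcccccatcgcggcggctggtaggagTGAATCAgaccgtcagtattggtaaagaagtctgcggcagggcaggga

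RefSeq promoter windows, each reaching 250 bases before and 50 bases after a start, were found for 9 of the 10 members; none was found for Tox. Both strands were searched for CTTTGA (the TCF/LEF core, in 16.0% of all 32851 windows), GGTGTGA (the T-box core, 3.98%), CACCTG (an E-box bound by E proteins, 20.2%), GAAANNGAA (IRF, 8.56%), TGANTCA (BACH and AP-1, 7.81%) and AAGTGAAA (PRDM1, 1.6%). The printed Bach2 sequence held CTTTGA on the opposite strand at position -93 from the start. That of Eomes held GAAANNGAA at -154, that of Tbx21 held CACCTG on the opposite strand at -196, and that of Prdm1 held CACCTG on the opposite strand at -87 and TGANTCA at -48. No searched string matched in the Id2 window. In these windows no 2 matches shared bases. Such a match is a description of letters and says nothing of binding.

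The counts of the 5 further lists stand beside a background of 57.4% of all tested genes called with genipin with NAC (28.5% higher, 28.9% lower), 61.0% with genipin (29.9% higher, 31.0% lower) and 59.7% with NAC (29.6% higher, 30.0% lower) against vehicle. The lists were chosen with earlier results of these data known, and no test was run over a list. Their counts and medians are descriptions. Partners and relatives of the factors were called in both directions. Of 25 listed genes 20 were tested: 10 rose and 5 fell with genipin with NAC against vehicle, 9 rose and 6 fell with genipin, and 6 rose and 5 fell with NAC, with median log2 changes of 0.14, 0.04 and 0.03 beside 0.0048, -0.0079 and -0.0053 over all tested genes. Batf3, the AP-1 family partner of IRF factors, fell with genipin with NAC (-1.51 ± 0.07), genipin (-2.05 ± 0.07) and NAC (-0.40 ± 0.06) against vehicle. Its relative Batf fell in these comparisons as well (-0.48 ± 0.05, -0.13 ± 0.05 and -0.59 ± 0.05). The E proteins, which ID2 and ID3 bind and hold off DNA, were divided: Tcf12 rose in all 3 (0.67 ± 0.04, 0.37 ± 0.04 and 0.48 ± 0.04), whereas Tcf4 was at -1.12 ± 0.12 with genipin with NAC (called lower), 0.01 ± 0.10 with genipin (not called) and -2.21 ± 0.13 with NAC (called lower). The TCF-1 coactivator beta-catenin (Ctnnb1) rose with genipin with NAC (0.48 ± 0.03) and with genipin (0.37 ± 0.03), and gave 0.05 ± 0.03 with NAC, not called. The Groucho corepressor Tle4 rose with genipin with NAC (0.46 ± 0.07), genipin (0.84 ± 0.06) and NAC (0.41 ± 0.07), as did Bach1, the relative of Bach2 (0.60 ± 0.08, 0.38 ± 0.08 and 0.81 ± 0.07).

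All 35 other fate regulators were tested. With genipin with NAC 21 rose and 5 fell against vehicle (median 0.39), with genipin 14 rose and 11 fell (median 0.06), and with NAC 23 rose and 9 fell (median 0.28). Over all tested genes 57.4%, 61.0% and 59.7% were called in these comparisons. Leaving out normalization factors shifted all genes by a median of 0.12 in NAC against vehicle. Myb, a factor of stem-like T cells, fell with genipin with NAC (-1.40 ± 0.05), genipin (-1.25 ± 0.05) and NAC (-0.93 ± 0.05), the same direction as Irf4. Nr4a1, an orphan receptor induced by T cell receptor signals, rose with genipin with NAC (1.24 ± 0.08) and NAC (2.24 ± 0.08) and fell with genipin (-0.95 ± 0.10), the same directions as Tcf7. The nuclear receptor Rora was at 1.53 ± 0.08 with genipin with NAC, -0.45 ± 0.10 with genipin and 1.32 ± 0.09 with NAC, all called. Ets1 rose in all 3 (0.85 ± 0.03, 0.47 ± 0.03 and 0.72 ± 0.03), as did the lymphoid zinc finger gene Ikzf3 (0.41 ± 0.05, 1.09 ± 0.04 and 0.13 ± 0.05). Hic1, a repressor found in tissue-resident T cells, rose with genipin with NAC (1.00 ± 0.17), genipin (2.36 ± 0.15) and NAC (2.18 ± 0.15), with an interaction of -3.54 ± 0.20. Stat3 had an interaction of 1.19 ± 0.04: it was higher with genipin with NAC (0.83 ± 0.03) and NAC (0.09 ± 0.03) and lower with genipin (-0.45 ± 0.03) against vehicle. Zbtb32 fell in all 3 comparisons, at -0.28 ± 0.03, -1.05 ± 0.03 and -0.26 ± 0.03.

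Genes of stem-like and memory cells, many of them known to depend on TCF-1, did not all take the direction of Tcf7. Of 15 genes 14 were tested: 9 rose and 5 fell with genipin with NAC, 2 rose and 9 fell with genipin, and 8 rose and 4 fell with NAC against vehicle, with medians of 0.55, -0.51 and 0.41, where 57.4%, 61.0% and 59.7% of all tested genes were called. The alpha-actinin gene Actn1 (0.98 ± 0.08 with genipin with NAC, -0.39 ± 0.09 with genipin and 1.32 ± 0.08 with NAC) had the same directions as Tcf7. Bcl2 rose with genipin with NAC (0.58 ± 0.03) and NAC (0.74 ± 0.03). The lymph node homing receptor Ccr7 was at -0.12 ± 0.04 with genipin with NAC, -2.56 ± 0.05 with genipin and 0.35 ± 0.04 with NAC, all called, with an interaction of 2.08 ± 0.07. The egress receptor S1pr1 was at -0.95 ± 0.05, -2.37 ± 0.06 and -0.54 ± 0.05, all called lower, with an interaction of 1.96 ± 0.08. Il7r, the IL-7 receptor chain, had an interaction of 1.01 ± 0.06, and the chemokine receptor Cxcr3 one of -1.36 ± 0.10.

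Effector genes, targets of T-bet, EOMES and BLIMP-1 among them, were mostly lower with NAC. Of 15 genes 14 were tested: 6 rose and 7 fell with genipin with NAC, 8 rose and 5 fell with genipin, and 2 rose and 10 fell with NAC against vehicle, with medians of -0.05, 0.26 and -0.75, where 28.9%, 31.0% and 30.0% of all tested genes were called lower. The granzyme gene Gzmb was at -0.65 ± 0.02 with genipin with NAC, -0.30 ± 0.02 with genipin and -1.32 ± 0.02 with NAC, all called lower. Ccl5 was at -0.13 ± 0.03, 1.29 ± 0.03 and -2.60 ± 0.04 in the same order, and Gzma at -1.99 ± 0.03, 0.77 ± 0.03 and -2.97 ± 0.03, all called. Il2rb lay at 0.11 ± 0.03, 0.65 ± 0.03 and -0.74 ± 0.03 in the 3 comparisons, all called, and Il2ra at -1.05 ± 0.03, -0.83 ± 0.03 and -0.50 ± 0.03, all called lower. In the interaction 12 effector genes were called higher and 2 lower, where 27.4% of all tested genes were called higher and 24.0% lower. Cxcr6 (2.60 ± 0.06), the perforin gene Prf1 (1.24 ± 0.04), Ccl5 (1.19 ± 0.05) and Gzmb (0.96 ± 0.03) were among those higher.

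Most of the listed inhibitory receptor genes were called higher with genipin with NAC than with vehicle. Of 10 genes, all tested, 9 rose and 1 fell with genipin with NAC, 6 rose and 4 fell with genipin, and 4 rose and 5 fell with NAC against vehicle, with medians of 0.68, 0.32 and -0.38. Over all tested genes 57.4%, 61.0% and 59.7% were called in these comparisons, and 28.5%, 29.9% and 29.6% were called higher. Pdcd1, which encodes PD-1, was at 1.84 ± 0.03, 0.76 ± 0.04 and -0.68 ± 0.04 in the 3 comparisons, all called, while Tox was higher in all 3. Havcr2, which encodes TIM-3, was at 0.33 ± 0.04, 0.40 ± 0.04 and -1.27 ± 0.04, all called. Ctla4 was at 0.67 ± 0.04, -1.56 ± 0.04 and 0.26 ± 0.04, all called, and Cd38 was higher throughout (1.91 ± 0.07, 0.25 ± 0.08 and 1.79 ± 0.08). Cd160 was at 1.16 ± 0.07, 2.55 ± 0.07 and -0.11 ± 0.08, the last not called. In the interaction 7 of the 10 were called higher and 1 lower, where 51.4% of all tested genes were called, with Entpd1 at 1.06 ± 0.04, Pdcd1 at 1.75 ± 0.05 and Cd160 at -1.27 ± 0.10.

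**Figure D5:**
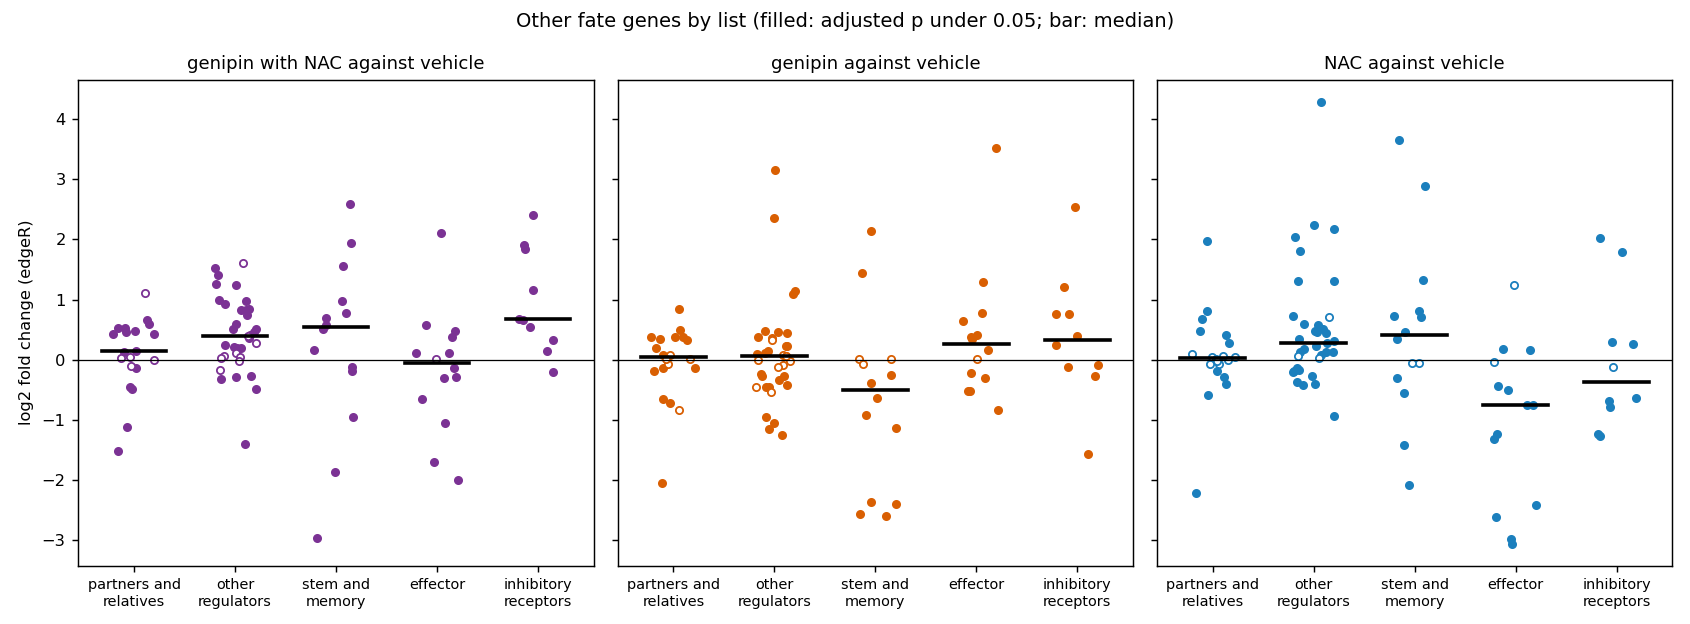
Log2 fold change (vertical axis) of each tested gene of the 5 further lists against vehicle, for genipin with NAC, genipin and NAC; filled points had adjusted p under 0.05, and bars mark list medians. The effector bar lies at -0.75 with NAC and 0.26 with genipin, and the stem and memory bar lies at -0.51 with genipin.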

How the data were processed

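RNA of 12 libraries was sequenced from a stranded total RNA kit with ribosomal RNA removal, per the labels. The submitters' processing notes name bcl2fastq, cutadapt 1.18, STAR 2.7.0f, RSEM 1.3.1 and mm10. The authors deposited 1 gene table per library with expected counts, TPM and effective lengths in bases, per the file headers. All 55450 gene IDs matched GENCODE mouse release 21.

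The deposited expected counts were rounded, filtered with filterByExpr (13636 genes kept), scaled by TMM (factors 0.961 to 1.05) and fitted with edgeR 4.0.16 under R 4.3.3, 1 mean per group over all 12 libraries. Quasi-likelihood F tests were adjusted by Benjamini and Hochberg over all tested genes, and genes were called under 0.05. SE is the absolute log2 fold change over the square root of F, and CPM use TMM-scaled totals. A count of 0 allows up to 3 counts. The deposited TPM served levels between genes.

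Members and lists were chosen with earlier results of these data known. Text names all members, up to 4 genes per list with the smallest p in genipin against vehicle, NAC against vehicle and the interaction, and 3 nearest profiles per member. Some genes that this rule picks are not reported here. The edgeR steps were tried on simulated counts for genipin against vehicle only. There 200 genes were changed, far fewer than were called in the data. Replicate numbers gave correlations of -0.0765 to 0.0453 over 18 same-numbered pairs, so no pairing was modelled. Alternatives were RLE factors, no factors, other filters, DESeq2 1.42.0, limma-voom (limma 3.58.1), a replicate block, only the groups compared, length offsets, each library left out, adjusted p under 0.01 and a 2-fold minimum. Figures used matplotlib 3.10.9.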

Additional observations from a re-analysis of the deposited data

Results flagged for a closer look

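For 5 factors the genipin effect in NAC-treated cells differed from that in cells without NAC, by the edgeR interaction test with Benjamini-Hochberg adjustment (n = 3 libraries in each of 4 groups). The log2 difference was 1.01 for Id2 (adjusted p = 8.22e-15), 0.72 for Irf4 (adjusted p = 1.93e-11), 0.56 for Prdm1 (adjusted p = 2.25e-08), 0.26 for Eomes (adjusted p = 0.00051) and -4.96 for Tox (adjusted p = 3.33e-09). With each library left out in turn, the values ran from 0.99 to 1.03 for Id2, 0.69 to 0.75 for Irf4, 0.53 to 0.58 for Prdm1, 0.23 to 0.29 for Eomes and -5.48 to -4.65 for Tox. Without normalization factors the Eomes value was 0.11 and its call was lost (adjusted p = 0.09). The size of the Tox value rests on 7 counts pooled over the vehicle libraries.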

How the results depend on the processing

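No member that was called in a comparison changed sign under any alternative run. Over the settings that keep all libraries and the threshold of 0.05 with no fold minimum, 509 member results kept their side of the threshold, 6 newly passed it and 3 were lost, and with a library left out 410 kept it, 5 newly passed and 5 were lost. At adjusted p under 0.01, 9 members passed in genipin against vehicle and 5 in genipin with NAC against genipin, and the counts in the other comparisons did not change. Requiring a 2-fold change left 1083 genes and 4 members in genipin with NAC against vehicle, 1336 and 3 in genipin against vehicle, 1352 and 4 in NAC against vehicle, 1995 and 1 in genipin with NAC against genipin, 805 and 4 in genipin with NAC against NAC, and 1345 and 2 in the interaction. With the replicate number as a block, the members called stayed at 8, 10, 8, 6, 10 and 5 in that order, and the block changed no member's call. Correlations of -0.0765 to 0.0453 between same-numbered libraries, with 3 of 12 closest to their own number, gave no sign of pairing. Leaving out a library gave 9 to 10 members in genipin against vehicle, 8 to 9 in genipin with NAC and in NAC against vehicle, 5 to 6 in genipin with NAC against genipin and in the interaction, and 10 in genipin with NAC against NAC. Without genipin+NAC replicate 1, the members called numbered 8 against vehicle, 6 against genipin, 10 against NAC and 5 in the interaction. The 6 against genipin were not the same members, since Id3 was lost (adjusted p = 0.0659) and Prdm1 passed (adjusted p = 0.0218), which gave 2 higher and 4 lower. Leaving out normalization factors shifted all genes by a median of 0.12 in NAC against vehicle and -0.144 in the interaction, where the members called then numbered 6, 3 in each direction. Prdm1 in genipin with NAC against vehicle passed with no factors (adjusted p = 0.0118) and among genes with a mean of at least 5 CPM (adjusted p = 0.0206), where Id3 and Tox were left out. Without factors, Prdm1 in genipin with NAC against genipin (adjusted p = 0.0325) and Bach2 in the interaction (adjusted p = 0.00912) passed too. With length offsets Lef1 passed in genipin with NAC against genipin (-0.23, adjusted p = 0.0201). The comparison using only the groups compared was not run for the interaction. The cause of these changes was not tested. Low counts limit Id3 and Tox.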
